A study of Drosophila melanogaster with 2 samples.

Results

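Background regions in coding exons are stretches of protein-coding sequence that the peak caller listed as weak, mostly non-significant signal in a ChIP-seq experiment. They were chosen as rows of the pooled list of peaks and background that shared no base with a thresholded peak, whose summit lay inside an annotated coding sequence (CDS) and more than 500 bp from every annotated gene or transcript start. This rule gave 2879 regions with transposable element annotations not counted as starts, as used here, and 2847 with them counted. The 2879 were 9.60% of the 30000 pooled regions, 10.9% of the 26452 background regions and 15.3% of the 18837 background regions away from starts. The other background regions away from starts were 10328 in introns, 4119 between genes and 1511 in exon sequence that is not coding. The experiment mapped CG1792, a C2H2 zinc finger protein, in whole Drosophila melanogaster embryos of mixed sex aged 0 to 24 h. The line stably carries CG1792 with GFP fused to its C-terminus, and the precipitation used an antibody against GFP, although the antibody field names CG1792. The 2 libraries, biological replicates 2 and 3, formed 1 group, chromatin was sonicated to 200 to 800 bp, and a control library was not analysed here. Library depth is unknown, since no read counts come with the lists.

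A ChIP-seq peak caller that is asked for many regions returns the strong sites first and then weak local maxima of read coverage. Such maxima are known to follow the openness of chromatin, transcription, base composition and how uniquely reads can be placed, as well as weak or indirect binding. Coding exons in Drosophila are richer in G and C than introns and the space between genes, are constrained by codon use, and seldom serve as sites of sequence-specific factors, which mostly sit at promoters, in introns and between genes.

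Sequences at 5 of the strongest regions with a summit in both replicates are given as examples of what the rule selected. They run from the GC-rich coding sequence of osa to the AT-rich sequence of Mitf on chromosome 4. Each is the 101 bp centred on the summit, read 5′ to 3′ on the strand of the gene, in build dm6. Capitals mark runs of the triplet CAG repeated at least 3 times (CAGCAGCAG). Windows that hold such a run on either strand made up 4.31% of the regions, against 2.82% of 184180 windows of coding sequence away from starts and 0.242% of the thresholded summits.
Adk2, chr3L:13020492-13020592, minus strand: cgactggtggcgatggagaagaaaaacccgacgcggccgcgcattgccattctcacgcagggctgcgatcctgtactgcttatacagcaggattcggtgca
osa, chr3R:17715984-17716084, minus strand: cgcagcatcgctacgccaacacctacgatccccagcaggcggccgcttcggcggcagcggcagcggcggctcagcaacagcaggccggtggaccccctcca
corto, chr3R:5085799-5085899, minus strand: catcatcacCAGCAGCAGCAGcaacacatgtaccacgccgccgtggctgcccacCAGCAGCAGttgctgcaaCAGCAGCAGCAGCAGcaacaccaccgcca
eIF4G1, chr4:926295-926395, minus strand: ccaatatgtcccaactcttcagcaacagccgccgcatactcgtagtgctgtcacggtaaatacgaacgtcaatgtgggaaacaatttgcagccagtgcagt
Mitf, chr4:1220372-1220472, plus strand: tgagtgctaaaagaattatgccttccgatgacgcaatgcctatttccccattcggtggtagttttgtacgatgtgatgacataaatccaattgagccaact

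The regions were uniform in width and weak. All 2879 were 416 bp wide, a median of 86.1% of their bases was coding, and 1023 (35.5%) were coding throughout. Their pooled signal, the caller's strength value whose scale is not stated, had a median of 23.4, quartiles of 20.4 and 28.0 and a range of 18.0 to 65.1. The median was 24.8 in intron regions and 24.0 in regions between genes, and the weakest thresholded peak had 66.97. By the deposited q-value, 61 of the coding-exon regions (2.12%) were below 0.05, against 10.4% of intron regions and 8.69% of regions between genes. The best rank of a coding-exon region in the pooled list was 3051. Because the rule drops thresholded peaks, the strong end of signal, q-value and rank was cut in every class, and these values serve as a description. Only 174 (6.04%) lay within 1000 bp of a thresholded summit, and the median distance to one was 7397 bp.

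Strong regions almost never lay in coding sequence, and the share settled with falling rank. Of the pooled regions away from starts, thresholded peaks included, 8 of the 1334 among the strongest 3000 lay in coding exons, or 0.600% (Wilson 95% interval 0.304% to 1.18%). The share was 3.52% in the next 3000, 9.96% in the third set and 14.5% in the fourth. In the weaker sets of 3000 it stayed between 16.4% and 18.8%. Eligible sequence, away from starts and outside thresholded peaks, held 18.6 Mb of coding exon, 52.5 Mb of intron and 36.3 Mb between genes. Exon sequence that is not coding made up 7.81 Mb. The shares are not corrected for these amounts, so a share in the weaker sets is not by itself a trait of coding exons. Introns held 70.7% of the strongest set and 51.4% of the weakest, and the space between genes held 23.6% and 23.5%.

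**Figure D1:**
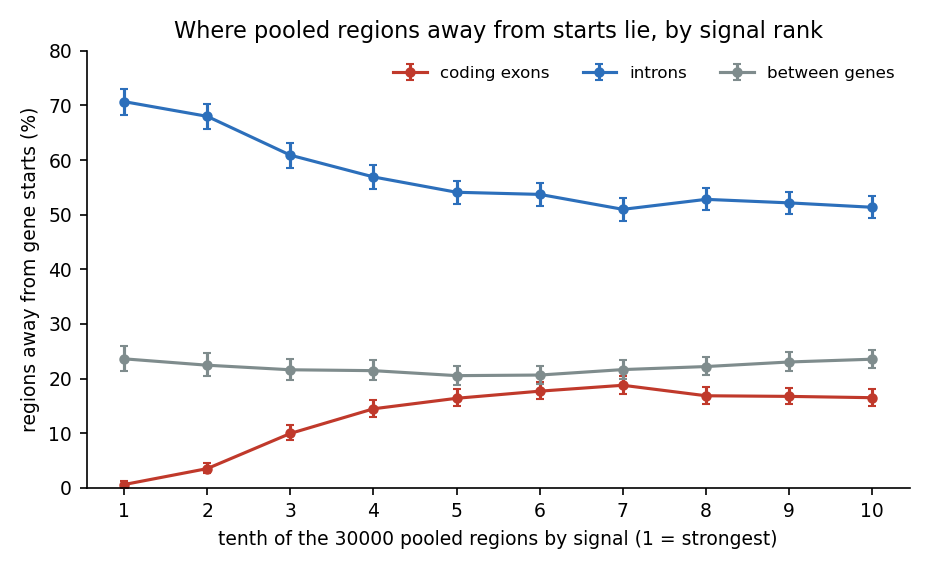
Share of pooled regions away from gene starts that lie in coding exons, in introns and between genes (y axis, %), for sets of 3000 regions from the strongest to the weakest signal (x axis); bars are Wilson 95% intervals over regions. The coding-exon share is 0.600% in the strongest set and 18.8% in the seventh set, while the share between genes stays between 20.5% and 23.6%.

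The 8 thresholded peaks in coding exons lay in otp, a homeobox gene on 2R (signal 398), Pde1c, a phosphodiesterase gene (237), klar, a gene of nuclear positioning (139), CG5895 (126), l(3)mbn (109), CG10357 (104), bif, which encodes an actin-binding protein (88.0), and CG4822 (71.7). They ranked from 87 to 2578. The strongest background regions therefore followed the weakest of these closely, with Adk2 at a signal of 65.1, Bap111 at 62.7 and CG5726 at 61.3.

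Of the strongest regions with a summit in both replicates, the first lay in Adk2, which encodes an adenylate kinase. It lay at chr3L:13020334-13020749 in the last of 3 exons, coding over its whole length and 1143 bp from the nearest start. Its signal was 28.7 in replicate 2 (rank 3833) and 34.6 in replicate 3 (rank 3316). Bap111, a subunit gene of the Brahma chromatin remodelling complex, had the second strongest region of all (signal 62.7), with no summit within 100 bp in replicate 3. CG5726 on 2R (signal 61.3) and CG2694 on X (59.7) came next. The region in osa, another Brahma complex gene, lay in exon 2 of 16 (chr3R:17715826-17716241, signal 58.0) and ranked 2063 in replicate 2 and 8656 in replicate 3. That in mod(mdg4), which encodes BTB chromatin proteins, had a signal of 57.4 and ranked 5662 in replicate 2 and 5332 in replicate 3. Its exon measured 140 bp, so 44.7% of the region was coding.

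Further strong regions lay in corto, a chromodomain gene (signal 57.3), in eIF4G1, the scaffold of the cap-binding complex (57.2), and in Stip1, a co-chaperone gene (54.0). The eIF4G1 region (chr4:926137-926552) ranked 2222 in replicate 2 and 10224 in replicate 3. Those of cg, a zinc finger gene (53.5), Septin5 (53.2) and Mitf, a bHLH-zipper transcription factor gene (52.8), followed. The region in cg ranked 22964 in replicate 2 and 3685 in replicate 3. Next came InR, the insulin receptor gene (50.97), Abl, a tyrosine kinase gene (50.8), dock, an SH2-SH3 adaptor gene (50.8), and CycG, a cyclin gene (49.8). The rest of the 20 were Act57B, a muscle actin gene (49.5), wb, a laminin gene (48.0), Xpd, a helicase gene of TFIIH (47.4), snRNP-U1-70K, a splicing gene (47.2), and l(3)neo38 (47.2). In 16 of the 20 the rank in replicate 2 was the better one.

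Coding-exon regions were found in both replicates less often than regions of other classes, and the difference lay in replicate 3. A partner, meaning a summit within 100 bp, was present in both replicate lists for 534 of 2879 coding-exon regions (18.5%), against 2714 of 10328 intron regions (26.3%). By Fisher's exact test, two-sided, the odds ratio was 0.639 (adjusted p = 8.54e-18). Between genes the share was 24.6% (odds ratio 0.696, adjusted exact p = 2.13e-09). In replicate 3 alone, 44.3% of coding-exon regions had a partner, against 56.1% in introns (odds ratio 0.622, adjusted exact p = 2.00e-28) and 52.2% between genes (odds ratio 0.728, adjusted exact p = 1.46e-10). In replicate 2 alone the shares were 58.5%, 56.7% and 56.4%, and the differences did not pass (odds ratios 1.08 and 1.09, adjusted exact p = 0.0885 each). The p-values were adjusted over the 8 Fisher tests of partners and signal. They compare regions of 1 pair of libraries, which are not independent replicates of a condition. The rule had also removed the thresholded peaks from every class, and those were chosen by agreement between these same replicates. This and the following comparisons of partners therefore concern what was left after that cut, and serve as a description. How far the cut differed between classes was not tested.

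**Figure D2:**
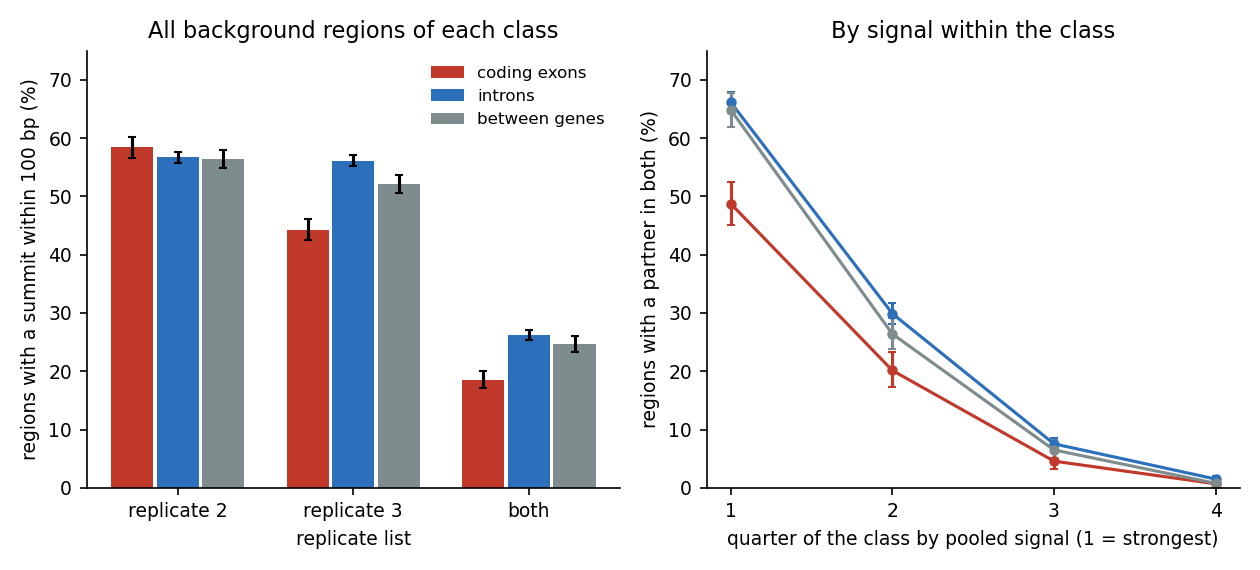
Left, share of background regions with a summit within 100 bp in replicate 2, in replicate 3 and in both (y axis, %), for coding exons, introns and the space between genes. Right, the share with a partner in both for 4 sets of equal size within each class, from strongest to weakest pooled signal; bars are Wilson 95% intervals over regions. The coding-exon bar is lowest in replicate 3 (44.3%) and for both (18.5%), and in the strongest set coding exons reach 48.8% and introns 66.2%.

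Among regions with a partner in 1 replicate alone, a count examined after its values were seen, 1150 coding-exon regions were found in replicate 2 and 741 in replicate 3. Replicate 2 thus held 60.8% of them, against 50.5% of such intron regions (odds ratio 1.52, adjusted p = 5.51e-15 by the same Fisher's exact test) and 53.6% of those between genes (odds ratio 1.35, adjusted exact p = 1.92e-06). In regions with a GC content of 45 to 55%, a setting chosen after seeing the data, the odds ratio was 1.32 against introns (exact p = 0.00472) and 0.956 against the space between genes (exact p = 0.732). The replicate 2 list alone held 3406 coding-exon regions, or 17.2% of its background away from starts, and the replicate 3 list 2698, or 14.6% (odds ratio 1.21). GC content moves with these classes, and its part in the result was not tested. Partners in neither replicate were found for 454 coding-exon regions (15.8%), against 13.4% in introns and 16.02% between genes.

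The share with both partners was lower than in introns within the stronger sets of like rank in their class, although these sets differ in signal. In the strongest 720 coding-exon regions, 48.8% had both partners (Wilson 95% interval 45.1% to 52.4%), against 66.2% in the strongest 2582 intron regions and 64.9% in the strongest 1030 between genes. These sets began at signals of 28.0, 32.1 and 30.9. The next sets gave 20.1%, against 29.9% in introns and 26.4% between genes, and 4.58%, against 7.55% and 6.50%. In the weakest set the shares were 0.695%, 1.51% and 0.777%, with intervals that overlapped. Over the 534 regions with both partners, replicate 2 and replicate 3 signals gave a Spearman correlation of 0.154, against 0.335 over 2714 intron regions and 0.331 over 1015 regions between genes. These correlations are across regions and serve as a description. The strongest regions of each replicate, as many as there are thresholded peaks, were also searched for partners. They held partners of 16 of 2879 coding-exon regions in replicate 2 and of 0 in replicate 3. The counts were 122 and 127 of 10328 intron regions, and 33 and 36 of 4119 regions between genes. All of these classes were kept below the thresholded peaks by the rule.

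Coding-exon regions were also weaker within the background. The rule had cut this same signal in all classes, below the weakest thresholded peak (66.97). The tests below therefore compare truncated values over regions that are not independent replicates, and serve as a description. Of the 2879, 43.4% lay above the median signal of all background regions away from starts, against 52.7% in introns (odds ratio 0.688, adjusted exact p = 3.71e-18) and 48.6% between genes (odds ratio 0.812, adjusted exact p = 2.71e-05). The difference from the space between genes did not pass in regions with a GC content of 45 to 55% (odds ratio 0.873, exact p = 0.136). It turned in the replicate 2 list alone, that is without replicate 3 (odds ratio 1.07, exact p = 0.135), and was 0.701 in the replicate 3 list alone.

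Per base, coding sequence away from starts held more background regions than the space between genes and fewer than introns. The density was 155 per Mb of coding sequence (exact Poisson 95% interval 149 to 161), 197 per Mb of intron and 113 per Mb between genes. Exon sequence that is not coding held 193 per Mb. The classes were not matched for distance from starts, and intron regions and regions between genes lay farther out (medians 3317 and 3084 bp). Within coding sequence it fell with distance from the nearest start, with 237 per Mb (interval 223 to 252) up to 1000 bp from it, 191 from 1000 to 1500 bp, 142 from 1500 to 2000 bp, 122 from 2000 to 4000 bp and 79.0 beyond 8000 bp. The regions lay a median of 1274 bp from a start, against 1887 bp for all eligible coding bases. Of those nearest to the limit, Vps29, a retromer gene, Roe1, a gene of mitochondrial import, and Orc2, a gene of the origin recognition complex, lay just beyond it, with signals of 19.1, 18.0 and 18.9. Regions in san, thoc7 and DCP2 lay just inside it and were left out, with signals of 22.6, 20.02 and 26.2.

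Long exons held few regions. Exons under 200 bp had 180 per Mb, those of 200 to 500 bp 202, those of 500 to 1000 bp 185, those of 1000 to 2000 bp 131 and those of 2000 bp or more 69.8 per Mb (interval 61.0 to 79.6). Within 1500 bp of a start the density was 259 per Mb in exons under 200 bp and 128 per Mb in the longest exons. Sequence at least 500 bp from an exon edge had 71.8 per Mb, against 194 at 100 to 200 bp. Along the longest coding transcript of each gene, which held 2788 of the summits, the first, middle and last parts of equal length had 184, 129 and 156 per Mb. In genes with several transcripts, 1600 of 2024 summits (79.1%) lay in sequence that is coding in every one of them.

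**Figure D3:**
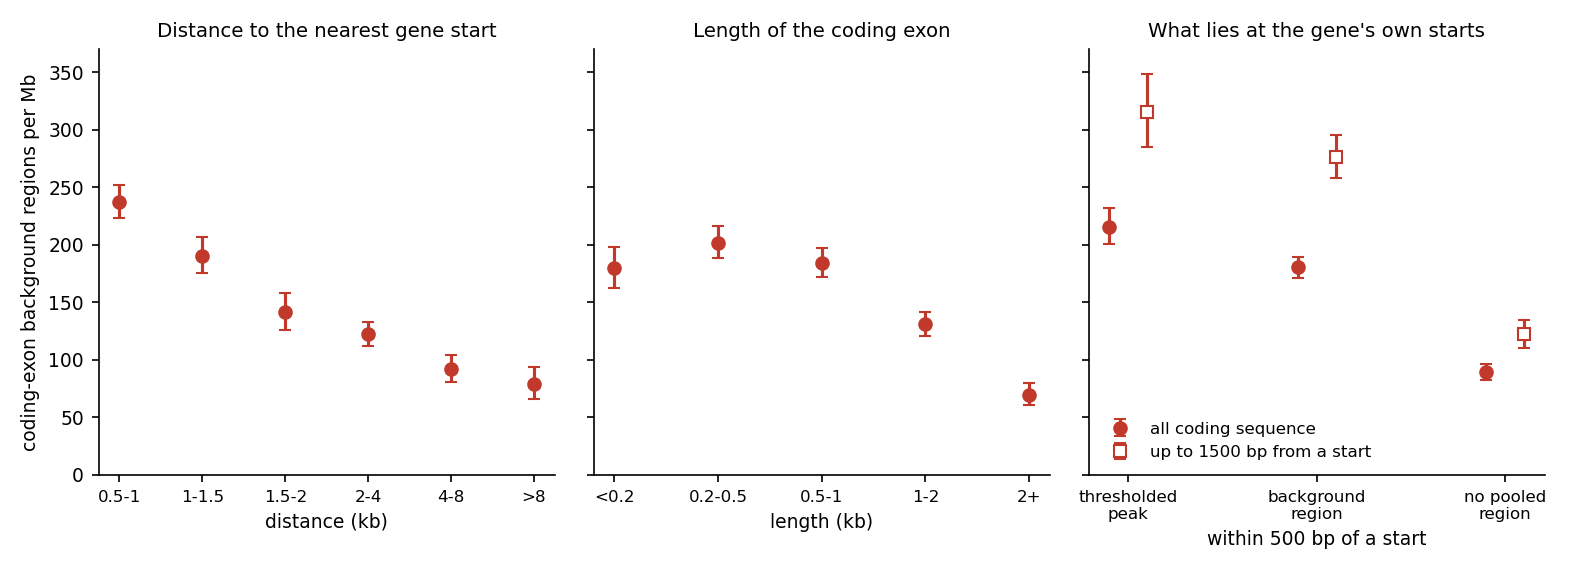
Coding-exon background regions per Mb of coding sequence (y axis), by distance to the nearest gene start, by exon length, and by what lies within 500 bp of the gene's own starts; points are densities and bars exact Poisson 95% intervals, which cover counting of regions only. Density falls from 237 to 79.0 per Mb with distance and is 216 per Mb in genes with a thresholded peak at a start and 89.2 per Mb in genes with no pooled region there.

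Genes with a pooled region at a start also held more regions in their coding sequence. In genes with a thresholded peak within 500 bp of a start of their own, the density was 216 per Mb (interval 201 to 232), and 582 of 1871 such genes (31.1%) carried at least 1 coding-exon region. In genes with a background region at a start and no thresholded peak it was 180 per Mb (interval 172 to 190), and in genes with no pooled region there 89.2 per Mb (interval 82.2 to 96.7). In coding sequence up to 1500 bp from a start, the densities were 316, 277 and 122 per Mb. The classes rest on the same libraries as the regions and were compared after earlier results were known, so these values are a description.

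By gene, 2324 of 12397 protein-coding genes with eligible coding sequence (18.7%) carried a region. A single region was found in 1893 of them, 2 in 342 and 3 or more in 89. The highest number was 8, in lola, which encodes BTB zinc finger transcription factors, and in CG33978 on chromosome 4. There were 5 each in mtd, CG6191, bun, a TSC22 family gene, Zir, TTLL4A, a tubulin ligase family gene, cno, which encodes the junction protein Canoe, MED26, a Mediator subunit gene, and par-1, a polarity kinase gene. The densest genes with at least 3 were Rab11, a GTPase gene of membrane recycling (3 in 602 bp), Gbs-70E, a glycogen-binding phosphatase subunit gene (4 in 1152 bp), Bap55, a Brahma complex gene (3 in 976 bp), CG7530 (3 in 1053 bp) and CG9302 (3 in 1210 bp). Regions in 1 gene share its sequence and are not independent.

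The giant genes were nearly empty. The 10 genes with the most eligible coding sequence, a set chosen after values were seen, held 7 regions in 399 kb, or 17.5 per Mb (interval 7.05 to 36.1), where the overall density would give 61.8. There were 0 in dpy, whose product is a giant cuticle-anchoring protein (68847 bp), sls, the titin-like gene of muscle (55457 bp), Muc14A, a mucin gene (48255 bp), Ank2, an ankyrin gene of neurons (41490 bp), Strn-Mlck, a muscle kinase gene, shot, a spectraplakin gene, and Dscam1, a gene of neuronal self-recognition. Msp300, a nesprin gene, held 2 regions in 63805 bp, bt, the projectin gene, 3 in 26595 bp, and spen 2 in 16702 bp. Density fell from 295 per Mb in genes with under 500 bp of eligible sequence to 55.4 per Mb in those with 8000 bp or more. Distance from starts moves with gene length, and its part was not tested.

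The ribosomal protein and respiratory chain lists had the highest densities of the 23 lists. Cytoplasmic ribosomal protein genes held 15 regions in 15.1 kb, or 992 per Mb (interval 555 to 1636), in 14 of 54 genes with eligible sequence, RpL19 the strongest (signal 41.3). Respiratory chain genes held 541 per Mb (interval 288 to 925; 12 of 53 genes), led by ND-42, a complex I gene (41.9). Median eligible sequence was short, at 254 bp in respiratory chain genes and 227 bp in ribosomal protein genes. All genes with under 500 bp held 295 per Mb, which the respiratory chain interval included. Glycolysis genes held 370 per Mb (interval 120 to 865, which includes the overall 155; 5 of 12 genes), led by Eno, the enolase gene (31.3), and translation factors 290 per Mb (interval 175 to 453; 15 of 54), led by eIF4G1. Within 1500 bp of starts, where all coding sequence held 218 per Mb, these lists had 1037, 612, 515 and 348 per Mb, and the intervals of glycolysis genes (167 to 1201) and translation factors (185 to 595) included 218. Aminoacyl-tRNA synthetase genes, led by LysRS (31.7), had 146 per Mb, and heat shock and chaperone genes, led by Hsp110 (35.0), had 156, close to the overall density.

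Lists of chromatin and developmental regulators lay at or above the overall density of 155 per Mb, with intervals that included it. Polycomb and trithorax genes had 181 per Mb, and 14 of 29 carried a region, with osa the strongest. Developmental signalling genes had 193 per Mb (18 of 40, InR), insulator genes 246 (7 of 19, mod(mdg4)) and genes with the zinc-finger associated domain of CG1792's family 264 (4 of 14, Sry-delta, signal 38.8). Hox genes had 236 per Mb (2 of 8, abd-A, 36.2) and segmentation genes 158 (7 of 28, ems, 29.7). As a share of genes, 18.7% of all genes set the background for these counts, and 18 of the 23 lists were above it. The Wilson 95% interval lay wholly above that share in 6 of the lists and wholly below it in 3. It included the share in the others. The 6 were glycolysis, developmental signalling, Polycomb and trithorax, insulator, cytoskeleton and motor, and extracellular matrix genes. The 3 were histone, cuticle protein and chemoreceptor genes. The share of genes is not corrected for length. It was 7.13% in genes with under 500 bp of eligible sequence and 34.9% in those with 8000 bp or more. The part of length in these counts was not tested.

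Several lists of tissue, structural and germline genes lay low per base over all their coding sequence. Neuronal genes had 57.8 per Mb (interval 27.7 to 106; 6 of 26 genes, unc-13 the strongest at 34.0), muscle structure genes 68.1 (8 of 27, Act57B), adhesion genes 78.4 (7 of 24, cno, 27.0), cytoskeleton and motor genes 87.0 (10 of 25, Ank, 38.1), extracellular matrix genes 91.5 (6 of 14, wb) and germline genes 102 (5 of 19, Bre1, 29.6). The intervals of the extracellular matrix and germline lists included the overall 155. Within 1500 bp of starts, neuronal genes had 305 per Mb (interval 62.9 to 891, 3 regions) and muscle genes 255 (interval 93.6 to 555, 6 regions), neither below the 218 of all genes there. Cytoskeleton genes had 347 per Mb there, extracellular matrix genes 311, germline genes 129 and adhesion genes 0, all with intervals that included 218. Chemoreceptor genes were low at both scales, with 59.4 per Mb overall and 71.4 within 1500 bp of starts (interval 34.2 to 131; 9 of 179, Ir87a, 38.3). Cuticle protein genes had 69.2 per Mb overall (3 of 95, Cpr50Cb, 32.6) and haemocyte genes 55.97 (2 of 18, lz, 31.6), on 3 regions each and with intervals that included 155. In the mucin list, 0 of 13 genes carried a region in 93.5 kb (exact Poisson 95% upper limit 39.5 per Mb). The histone list held 0 regions in 34 genes and 15.0 kb (upper limit 245 per Mb, above the overall density), and reads of these repeated copies may be shared. In whole embryos, few cells of a type and little accessible chromatin per cell cannot be told apart. The part of gene length and of distance from starts was not tested. Some genes occur in more than 1 list.

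**Figure D4:**
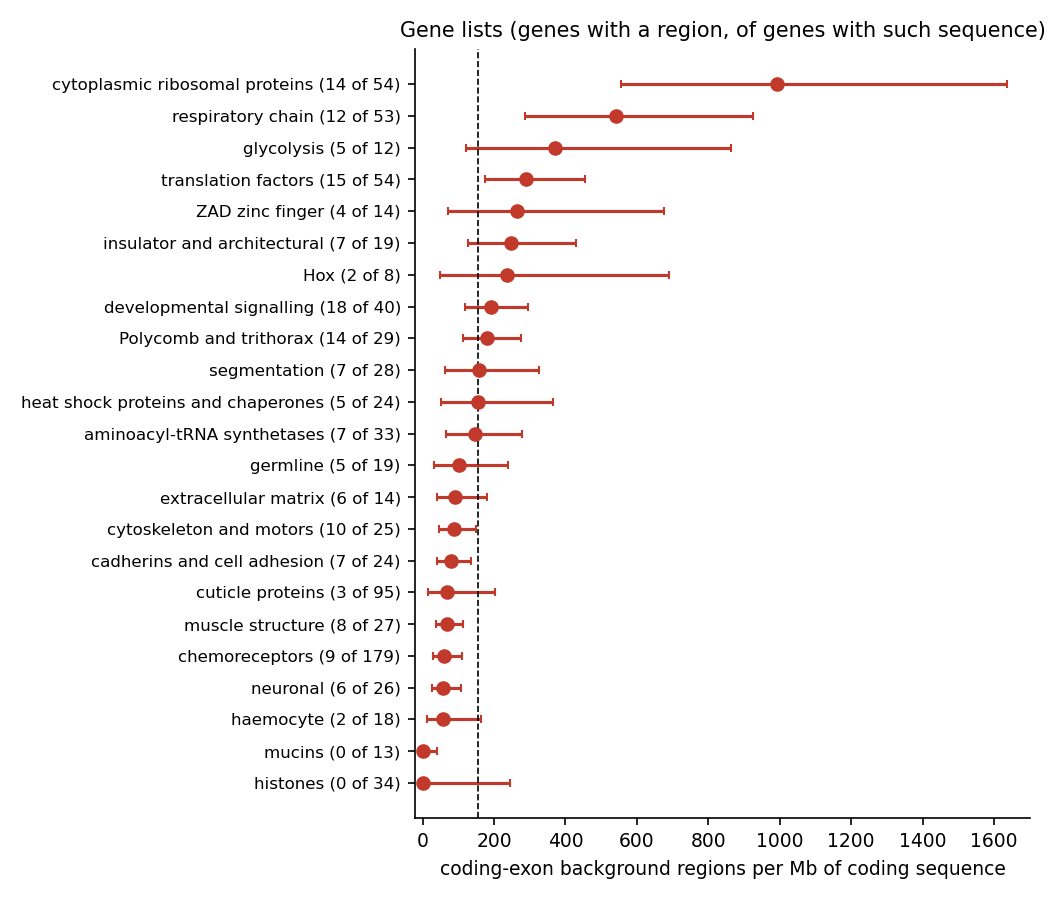
Coding-exon background regions per Mb of coding sequence more than 500 bp from starts (x axis) for 23 gene lists, with the number of genes that carry a region and the number with such sequence; bars are exact Poisson 95% intervals over regions and the dashed line is the density over all genes. Cytoplasmic ribosomal protein genes reach 992 per Mb and the mucin and histone lists hold 0.

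Among chromosome arms, chromosome 4 stood apart. This small, largely heterochromatic chromosome held 87 regions, or 341 per Mb of coding sequence (interval 273 to 421), against 129 on X, 147 on 2R, 154 on 2L, 157 on 3R and 171 on 3L. Its introns held 242 per Mb (interval 203 to 286) and the space between its genes 225 per Mb (interval 170 to 293). Coding exons had the highest value of these 3 classes there, but its interval overlapped both others. On each other arm introns had the highest value. The GC content of its regions was 41.7% ± 7.53 (SD over 87 regions), against means of 53.9% to 57.4% elsewhere, and 25.3% had both partners, against 15.6% on 2L and 20.4% on 2R. CG33978, MED26, eIF4G1, Mitf, unc-13, Ank and bt, named above, lie on it. Without it, a setting chosen after seeing the data, the overall density was 152 per Mb, and the 10 longest genes held 4 regions, or 10.7 per Mb (interval 2.92 to 27.5), since bt has 3. Neuronal genes then had 44.1 per Mb, since unc-13 has 3 of their 10 regions, and muscle genes 62.0.

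GC content was slightly higher at the summits than in flanks centred in coding sequence, a difference that did not pass in wholly coding windows. The 101 bp around them had a GC content of 54.9% ± 8.30 (SD over 2879 regions), against 40.1% ± 8.53 in intron regions, while eligible coding sequence as a whole had 53.4%. In 1141 regions the flank centres, 300 bp to either side, both lay in coding sequence, although the windows could reach beyond it. There GC was higher at the summit in 644 and lower in 471 (57.8% of untied pairs, exact two-sided sign test p = 2.46e-07). The means were 54.2% at the summit and 52.8% in the flanks. Where all 3 windows were coding throughout, a setting chosen after seeing the data, it was higher in 350 and lower in 305 of 675 regions (53.4%, exact p = 0.0855, means 54.9% and 54.1%), which did not pass. In wholly coding windows the mean was 56.4% at the summit and between 53.9% and 54.3% from 400 to 1000 bp away. The members differ from distance to distance.

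**Figure D5:**
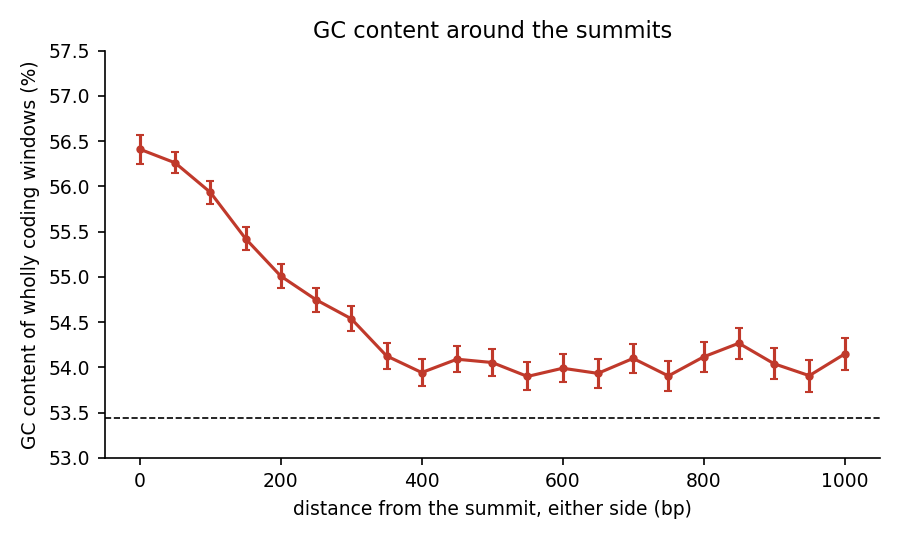
Mean GC content of 101 bp windows that are coding throughout (y axis, %) by distance from the summit to either side (x axis, bp); bars are standard errors over windows, which share regions and are not independent, and the dashed line is the GC content of all eligible coding sequence. The mean is 56.4% at the summit and 53.9% at 400 bp.

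With the flank 300 bp away, no 7-mer or element passed the test between summit and flank. Of 8192 7-mers, each counted with its reverse complement and compared between summit window and a flank 300 bp away in 2424 regions, 0 differed by exact two-sided McNemar tests with Benjamini-Hochberg adjustment (lowest adjusted p = 0.5). At an unadjusted p below 0.05 there were 396 (4.83%), 199 of them more frequent at the summit and 197 in the flank. With the flank 500 bp away, 2 passed, 1 in each direction. CGGGTGC was present in 43 summit and 10 flank windows (adjusted exact p = 0.0227), and GACCCAA in 6 summit and 34 flank windows (adjusted exact p = 0.0159). None of 10 consensus elements passed (0 of 10 after adjustment, 1 at an unadjusted p below 0.05). That 1 was the Zelda site CAGGTAG, bound by an early activator of the embryonic genome, in 40 summit and 22 flank windows (exact p = 0.0273, adjusted p = 0.273). The DRE core TATCGATA of promoters was in 0.0347% of coding-exon summit windows, against 0.0885% of coding windows away from starts and 2.70% of thresholded summits. The M1BP core GGTCACAC was in 0.174%, against 0.167% of coding windows and 1.24% of thresholded summits. CAG triplets were in 108 summit and 89 flank windows (adjusted exact p = 0.805). These words, searched on both strands, are matches of letters and not sites.

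Repeated sequence was rare. The central 51 bp occurred elsewhere in the genome without a mismatch in 3 of the 2879 regions (0.104%), in Sgs3, a salivary glue gene, with 3 copies in all, and in Ahcy and Cyp9f2 with 2 each. Reads there can be shared between copies, so those 3 regions are uncertain.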

How the data were processed

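Region lists for 2 ChIP-seq libraries and their pool were used as deposited. The authors, per the listing deposited beside the lists, called peaks and background in each replicate and in the pool and thresholded a final list by the irreproducible discovery rate. The deposited signal value has no stated scale and was compared only within a list or by rank. The −log10 q-value of each region is the authors' own and was used only as a description. For aligner, caller and versions: not given in the sources used here. Positions are 1-based dm6. Genes came from Ensembl release 115; transposable element annotations were not counted as gene starts.

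Shares were tested by Fisher's exact test, two-sided, and windows by exact two-sided McNemar or sign tests, each Benjamini-Hochberg adjusted within its family, at a threshold of 0.05 (Python 3.11.15, scipy 1.17.1, statsmodels 0.14.6). Intervals cover the counting of regions only; depth is unknown. Tests were checked on simulated data. Alternatives were other start limits, windows, partner distances, transcripts and single replicates. Named genes were the 20 strongest regions with both partners, the 10 genes with most regions, the 5 densest with at least 3, the strongest of each list and the neighbours of each limit; the 10 longest genes, the start classes, the thresholded peaks in coding exons and the repeated regions were added after values were seen. The regions, lists and tests were chosen with earlier results of these data known. In the gene lists, 1 region in overlapping genes counts for each, and names without a match were left out.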

Additional observations from a re-analysis of the deposited data

How the results depend on the processing

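Of 90 recomputed values of 11 results, 82 were classed as unchanged. For results with a test, this meant the same direction and side of the threshold. For counts without a test, it meant a value close to the main count. The number of regions was 1832 with a start limit of 1000 bp, against 2879 with 500 bp; taking each replicate list alone gave 2698 to 3406. For a partner in both replicates, judging by 1 replicate list alone gave odds ratios of 0.622 to 1.08 against introns and 0.728 to 1.09 against the space between genes, and the direction turned where replicate 2 alone was asked (1.08 and 1.09). For the stronger signal, single lists gave 0.619 to 0.876 against introns and 0.701 to 1.07 against the space between genes. Of the settings chosen after seeing the data, a GC content of 45 to 55% gave 0.873 for signal and 0.956 for replicate 2 among regions found in 1 replicate, both against the space between genes. Wholly coding windows gave a GC excess in 53.4% of pairs, against 57.8%. With single lists that share was 55.9% to 57.8%. With a flank 500 bp away, 2 7-mers passed, against 0. Leaving out a replicate gave 0 7-mers, 0 elements, and 15 to 16 lists above the share of all genes, against 18. With a start limit of 1000 bp, 14 lists were above it. The causes were not tested. No paired analysis was possible because the study has 1 group. Each list holds 30000 regions at unknown depth, so a weak region missing from a replicate list may lie below its last rank.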
